A study of Mus musculus with 9 samples.

Results

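Hearts that were overloaded by transverse aortic constriction (TAC) under puerarin were compared here with hearts of sham-operated mice, to ask which genes still differed from sham and which did not. The members were the 13646 genes with a value in both deposited gene tables, of 14280 genes in either table, because each table held TAC beside only 1 of the other groups. Tested were the 11931 members with 1 FPKM or more in any 3 of the 6 libraries compared, and the other 1715 were not. FPKM are fragments per kilobase of transcript, scaled to the mapped fragments of the library, a level corrected for transcript length and library depth.

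All groups were male C57BL/6 mice, 10 weeks old by the labels, and each library was the heart-tissue RNA of a separate mouse, with 3 mice per group. The paper names heart tissue as the source of the RNA and does not say whether atria were included. In the TAC and TAC+PUE groups the transverse aorta was narrowed surgically, and in the sham group the operation was done with no constriction. TAC+PUE mice were given puerarin into the peritoneum at 100 mg/kg a day, beginning 3 days ahead of surgery, and the sham and TAC mice were given saline. Hearts were taken 21 days after surgery. No sham group under puerarin was analysed here, so a direct action of the drug and a remainder of the overload cannot be told apart. The number of mice limits the tests: they measure the spread between 3 hearts a group.

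Pressure overload makes the left ventricle thicken. Cardiomyocytes then re-express fetal and stress genes such as natriuretic peptides, skeletal α-actin and β-myosin heavy chain, while genes of mitochondrial respiration and fatty acid oxidation usually fall and fibroblasts lay down collagen and other matrix. Puerarin is an isoflavone glycoside from the kudzu root.

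Several libraries stood apart in mitochondrial, atrial or red cell transcripts. The 13 mRNAs encoded by the mitochondrial genome took 31.6 to 42.9% of all FPKM in sham, 14.2 to 26.0% in TAC+PUE and 2.81 to 7.04% in TAC. Myl7, the atrial myosin light chain, was at 0.857 to 1.07 FPKM in the sham hearts and at 27.4, 708 and 245 FPKM in the TAC+PUE hearts. Summed red blood cell markers ran from 1107 to 1334 FPKM in sham and from 1576 to 6144 FPKM in TAC+PUE. TAC+PUE replicate 2 had the lowest mitochondrial share and the highest Myl7 of its group, and sham replicate 2 the lowest mitochondrial share of the sham hearts. Sequencing depth is unknown from these tables. The labelled tissue carried its defining genes, with Myh6, the α-myosin heavy chain of the adult mouse heart, between 2369 and 2738 FPKM in all 6 libraries.

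**Figure D1:**
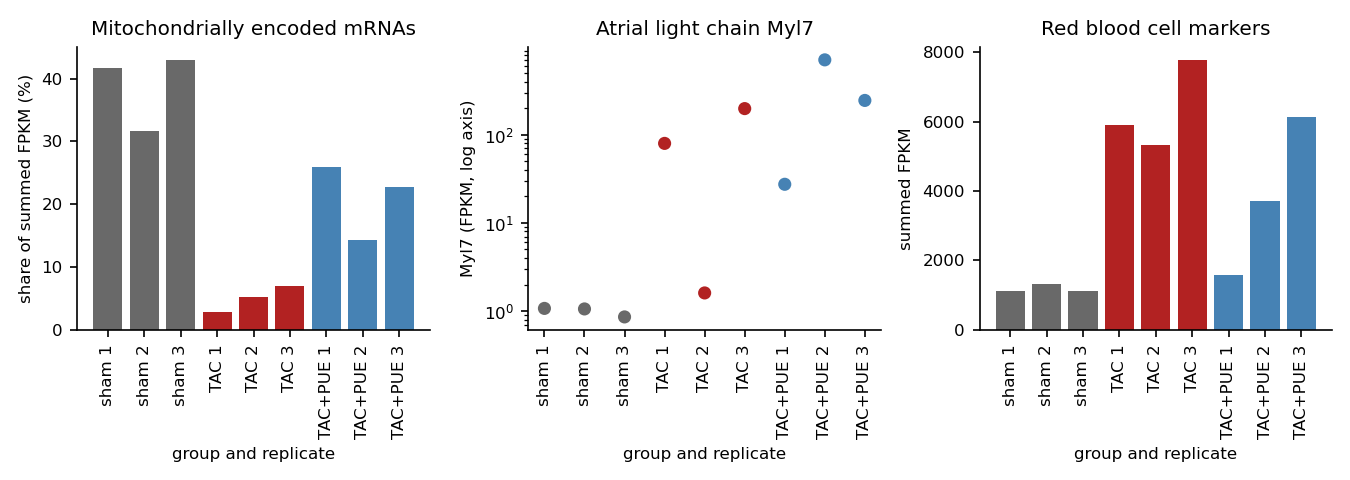
Bars give the share of summed FPKM taken by mitochondrially encoded mRNAs (left) and the summed FPKM of red blood cell markers (right), and points give Myl7 in FPKM on a log axis (middle), for each of the 9 libraries. The TAC+PUE hearts sit at 14.2 to 26.0% mitochondrial mRNA, below every sham heart and above every TAC heart, and TAC+PUE replicates 2 and 3 carry the most Myl7, at 708 and 245 FPKM.

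On log2(FPKM + 1), the scale of every difference given here, 1738 genes were higher in TAC+PUE than in sham and 322 were lower (limma, Benjamini-Hochberg adjusted p under 0.05), which is 14.6% and 2.7% of the genes tested. At an unadjusted p under 0.05 there were 4415. Among the calls, 229 genes were higher by more than 1 and 19 lower by more than 1. A gene was named near sham when the whole 95% confidence interval of its difference lay between -0.5 and 0.5, and this held for 6505 genes, or 54.5%. A further 3423 genes were neither called nor near sham, so their relation to sham was not resolved with 3 hearts a group. The groups did not overlap for any called gene, against 32.5% of all genes tested for which every TAC+PUE heart lay above every sham heart and 10.1% for which it lay below.

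The balance of directions moved with the scaling. The median difference over all genes was 0.11 as deposited, -0.02 after median-ratio scaling, 0.25 after the rRNA-like transcripts Gm26917 and Gm42418 were removed and libraries rescaled, and -0.04 after those and the mitochondrially encoded mRNAs were removed. Higher genes made up 84.4% of the calls as deposited, and 48.7%, 96.3% and 55.4% under the other scalings in that order. Called in the same direction under all 4 scalings were 799 higher and 125 lower genes, or 6.7% and 1.05% of the genes tested. The number of calls also fell when any single sham heart was left out, which leaves fewer libraries to the test. It was 402 genes higher and 40 lower without sham replicate 1, 1025 and 134 without sham replicate 2, and 361 and 43 without sham replicate 3. The median difference over all genes stayed at 0.09 to 0.12 in these fits. Without TAC+PUE replicate 1 the counts were 2682 and 1019, and without TAC+PUE replicate 3 they were 1013 and 187. Without both TAC+PUE libraries of at least 100 FPKM Myl7, replicates 2 and 3, they were 895 and 201, where the remaining TAC+PUE heart is assumed to vary as the sham hearts do. In every one of 17 alternatives that tested them, 323 of the higher and 30 of the lower genes were called again. For genes described below with a call against sham, calls lost under an alternative are given beside the gene with their values or range.

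**Figure D2:**
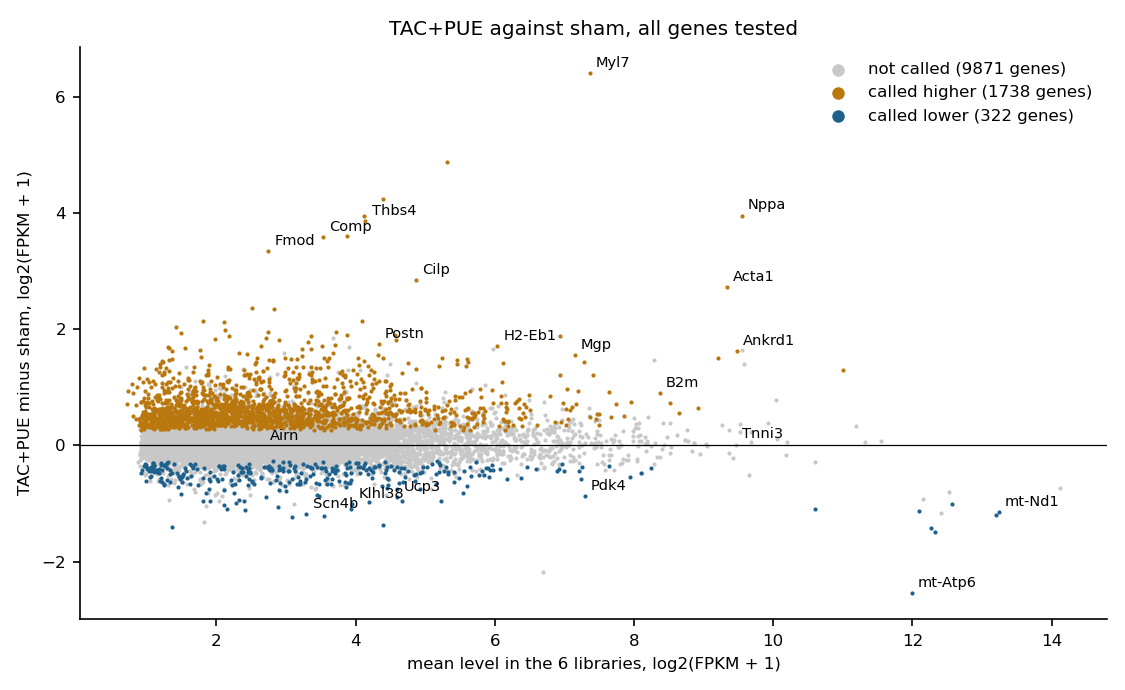
Each point is a gene, placed by its mean level in the 6 libraries and by its difference between TAC+PUE and sham, both on log2(FPKM + 1). The 1738 higher genes include Myl7, Nppa, Acta1 and the matrix genes Thbs4, Comp, Fmod and Cilp, while the 322 lower genes include Pdk4, Ucp3, Scn4b and, at the highest levels, mitochondrially encoded mRNAs such as mt-Nd1.

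Set against TAC, more genes stayed higher than stayed lower as deposited, but not under every scaling. TAC against sham (62.4% of genes called) used the same genes and the same sham hearts, and TAC+PUE against TAC called 35.3% higher and 5.27% lower. The median difference of TAC+PUE minus TAC over all genes was 0.27. Calls of TAC+PUE against TAC are given here and below as deposited only, and how far they hold under other scalings is not reported here. Of 2889 genes that were higher in TAC than in sham (24.2% of those tested), 1144 (39.6%) were also higher in TAC+PUE, 502 (17.4%) were not called and near sham, and 1243 (43.0%) were not called with a wider interval. None was called lower in TAC+PUE by limma, and 1 was lower at an unadjusted p under 0.05. Of 4553 genes that were lower in TAC (38.2%), 303 (6.66%) were also lower in TAC+PUE, 3112 (68.4%) were near sham and 1099 (24.1%) had wider intervals. The remaining 39 (0.857%) were called higher than sham in TAC+PUE. Genes higher in both had a median difference from sham of 0.72 in TAC and 0.60 in TAC+PUE, and genes lower in both of -1.02 and -0.46. The 1144 genes higher in both and 303 lower in both became 703 and 745 under median-ratio scaling, 642 and 650 without rRNA-like and mitochondrial mRNAs, and 2973 and 124 without rRNA-like transcripts alone. Without sham replicates 1, 2 and 3 they were 273 and 36, 735 and 129, and 234 and 41, without TAC+PUE replicates 1, 2 and 3 they were 1737 and 978, 755 and 196, and 675 and 178, and without TAC+PUE replicates 2 and 3 together 503 and 158. Of the genes higher in TAC+PUE than in sham, 555 were not called in TAC, and 323 were also called higher than in TAC. As deposited, 6 genes were lower than in both sham and TAC.

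Extracellular matrix genes were well above sham. Of 29 matrix genes tested, of 30 listed, 24 were higher than in sham and none was lower (26 and 0 at an unadjusted p under 0.05). Over all genes 14.6% were higher and 2.7% lower. The median difference was 1.10, beside 0.11 over all genes. In TAC 20 of the matrix genes were higher and 2 lower, with a median of 0.99. The TAC+PUE median was 0.97 to 1.28 over the 4 scalings, and 21 genes were called in all of them. Without TAC+PUE replicates 2 and 3 the median was 1.21. Leaving out single libraries gave 17 to 29 genes called higher in TAC+PUE, with 17 without sham replicate 3. The 5 matrix genes that did not pass the test were Col4a1, Col4a2, Col6a3, Fbn1 and Sparc, with differences from 0.32 to 0.62.

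Thbs4, thrombospondin 4, a matrix protein of stressed heart and tendon, stood at 1.30, 1.30 and 1.17 FPKM in the sham hearts, 6.16, 7.43 and 4.95 in the TAC hearts and 34.5, 34.6 and 27.0 in the TAC+PUE hearts. Every TAC+PUE heart lay far above every heart of the other groups. The difference from sham was 3.86 (SE 0.11, adjusted p = 2.2e-05) and that from TAC 2.21 (adjusted p = 0.00027). Cilp, cartilage intermediate layer protein, which is made by cardiac fibroblasts, went from 5.95, 6.45 and 6.01 FPKM in sham to 55.1, 50.3 and 45.9 in TAC+PUE, with 12.7 to 20.0 in TAC. Its difference from sham was 2.85 (SE 0.092, adjusted p = 2.3e-05). Comp, the pentameric relative of the thrombospondins, read 0.638, 0.799 and 0.674 FPKM in sham and 13.1, 27.9 and 20.1 in TAC+PUE, a difference of 3.59 (SE 0.23, adjusted p = 0.00076). The collagen-binding proteoglycan fibromodulin, Fmod, read 0.235, 0.170 and 0.164 FPKM in sham, 1.43, 0.845 and 3.10 in TAC, and 8.94, 12.9 and 11.8 in TAC+PUE. It differed from sham by 3.35 (SE 0.13, adjusted p = 5.2e-05). For all 4 of these genes TAC+PUE was also called higher than TAC as deposited, by 1.58 to 2.21.

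Another set of matrix genes was called in TAC+PUE while TAC was not called against sham. Postn, periostin, the matricellular protein of activated fibroblasts, was at 8.46, 7.73 and 7.71 FPKM in sham, 5.13, 10.3 and 5.72 in TAC, and 42.5, 26.3 and 22.1 in TAC+PUE. It differed from sham by 1.75 (SE 0.21, adjusted p = 0.0048) in TAC+PUE and by -0.21 (adjusted p = 0.39) in TAC. Mgp, matrix Gla protein, an inhibitor of calcification, was at 70.0, 70.9 and 70.7 FPKM in sham and at 182, 234 and 217 in TAC+PUE, while the TAC hearts, at 45.7, 69.1 and 90.0, lay on both sides of sham. The difference of TAC+PUE from sham was 1.56 (SE 0.11, adjusted p = 0.00083). Fibronectin, Fn1, and lysyl oxidase, Lox, which crosslinks collagen, followed the same order, with differences from sham of 1.09 and 1.18 in TAC+PUE (adjusted p = 0.0075 and 0.0067) and of 0.03 and 0.14 in TAC. Fn1 and Lox were called higher than in TAC, by 1.06 and 1.04.

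Col1a1 and Col3a1, chains of fibrillar collagens, had another order. Col1a1, the α1 chain of type I collagen, was at 23.2, 29.2 and 23.6 FPKM in sham, at 63.1, 91.9 and 51.2 in TAC+PUE and at 139, 114 and 103 in TAC, so that the TAC+PUE hearts lay between the other groups with no overlap. It was 1.37 above sham (SE 0.21, adjusted p = 0.0079) and 0.81 below TAC (log2 difference of TAC+PUE minus TAC -0.81, adjusted p = 0.013). Col3a1 was likewise above sham by 1.10 (adjusted p = 0.018), with -0.73 against TAC (adjusted p = 0.023). The Col3a1 call against sham was lost without sham replicates 1 (1.07) or 3 (1.03). Decorin, Dcn, and lumican, Lum, proteoglycans that bind collagen fibrils, were lower than sham in TAC, by -0.62 and -1.11, and higher than sham in TAC+PUE, by 0.40 and 0.58 (adjusted p = 0.019 and 0.022). Dcn and Lum lost their calls under median-ratio scaling (0.24 and 0.42), without rRNA-like and mitochondrial mRNAs (0.22 and 0.40), in a joint fit of all 9 libraries (0.40 and 0.58) and without any single sham heart (0.38 to 0.42 and 0.54 to 0.63), and Dcn also without TAC+PUE replicates 2 and 3 (0.35).

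Fibroblast markers were tested as a list of their own, which shares Postn, Mgp, Dcn, Lum and the collagens with the text above. Of 16 tested, 11 were higher and none lower (13 and 0 at an unadjusted p under 0.05), beside 14.6% and 2.7% of all genes. The median difference was 0.58, and in TAC against sham it was -0.07. Their summed level was 613 to 697 FPKM in the sham hearts and 954 to 1313 FPKM in the TAC+PUE hearts, and no marker was at 0 in either group. Without any single sham heart 6 or 7 were called, and without TAC+PUE replicates 2 and 3, 8. Among the markers that did not pass the test were Pdgfra, Ddr2, Tcf21 and Fap, with differences of 0.19, -0.09, 0.58 and -0.09. Pdgfra and Tcf21 were called with rRNA-like transcripts removed (0.35 and 0.72). Tcf21 was also called at a pseudocount of 0.1 (0.72) and without TAC+PUE replicate 1 (0.77). It was called too without the eBayes trend and with the replicate block (both 0.58). Ddr2 and Fap were called in no alternative. In bulk RNA such as this, fewer cells of a type and less RNA per cell cannot be told apart, and the same holds for an increase. Meox1, a homeobox factor of activated fibroblasts, went from 10.1, 10.3 and 8.64 FPKM in sham to 30.0, 40.6 and 20.4 in TAC+PUE, a difference of 1.51 (SE 0.22, adjusted p = 0.0076).

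**Figure D3:**
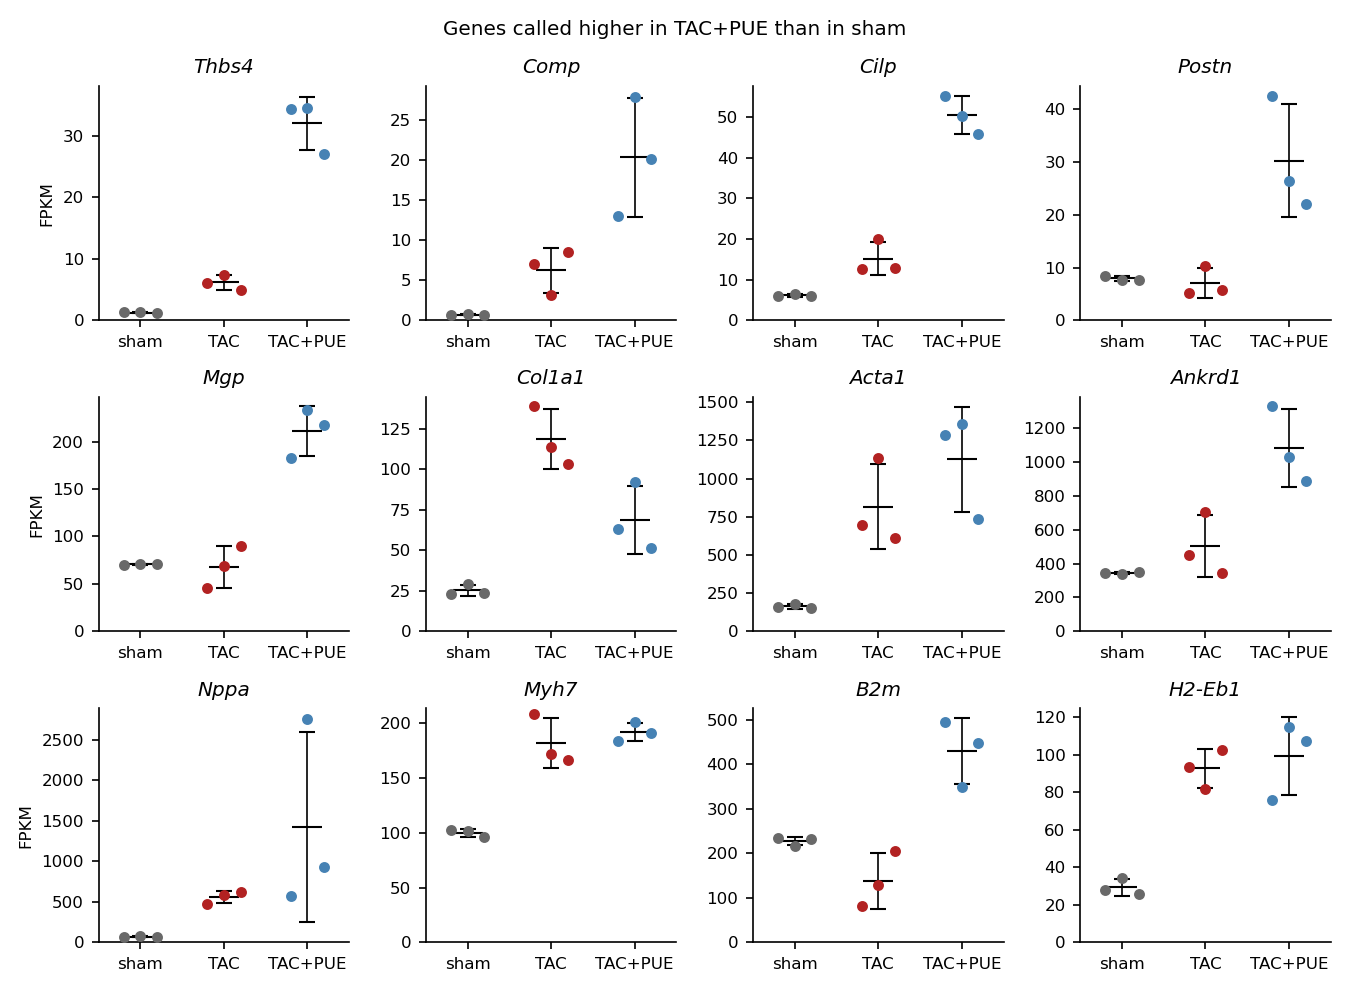
FPKM of 12 genes called higher in TAC+PUE than in sham, for 3 sham, 3 TAC and 3 TAC+PUE hearts, with points for single hearts and bars for the mean and SD. Thbs4, Comp, Cilp, Postn and Mgp have their highest hearts under TAC+PUE, Col1a1 has its highest under TAC, and Myh7 lies at 167 to 209 FPKM in both constricted groups against 96.0 to 103 in sham.

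Genes of the hypertrophy and stress programme stayed above sham. Of 14 tested, 12 were higher and none lower in TAC+PUE (14 and 0 at an unadjusted p under 0.05), beside 14.6% of all genes higher. The median difference was 1.35, and in TAC 10 were higher and 1 lower, with a median of 1.07. The list includes Nppa and Mybphl, which are described below with the atrial genes. Under all 4 scalings 9 held. Without TAC+PUE replicates 2 and 3 all 14 were called, and without sham replicates 1, 2 or 3 the counts were 7, 7 and 5. Connective tissue growth factor, Ctgf, at 59.6, 105 and 39.5 FPKM in TAC+PUE against 31.1 to 32.0 in sham, and the calcineurin regulator Rcan1 did not pass (adjusted p = 0.063 and 0.061).

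Acta1, skeletal α-actin, the fetal actin of the overloaded ventricle, was at 157, 181 and 152 FPKM in sham, at 700, 1134 and 613 in TAC and at 1287, 1358 and 733 in TAC+PUE. The difference from sham was 2.73 (SE 0.23, adjusted p = 0.0014), and that from TAC was 0.47 (adjusted p = 0.20). Ankrd1, the stretch-responsive ankyrin repeat protein of the sarcomere, was at 344, 341 and 348 FPKM in sham and at 1331, 1028 and 884 in TAC+PUE, with the TAC hearts, at 453, 703 and 347, between and touching sham. It differed from sham by 1.63 (SE 0.16, adjusted p = 0.0019) and from TAC by 1.15 (adjusted p = 0.0061). Myh7, β-myosin heavy chain, was at 103, 102 and 96.0 FPKM in sham and at 184, 201 and 192 in TAC+PUE, which was 0.93 above sham (SE 0.083, adjusted p = 0.0015). Its level in TAC, 209, 172 and 167 FPKM, overlapped with TAC+PUE, and the difference between them was 0.08 (95% confidence interval -0.27 to 0.44, adjusted p = 0.70). Nppb, B-type natriuretic peptide, was at 78.6 to 80.7 FPKM in sham and at 215, 322 and 151 in TAC+PUE, a difference of 1.44 (SE 0.24, adjusted p = 0.012) that was not called without sham replicate 3 (1.45). Mybpc2, fast myosin-binding protein C, went from 4.62, 5.71 and 4.75 to 13.9, 19.7 and 15.1 FPKM, and was above both sham (1.51, adjusted p = 0.0018) and TAC (0.62, adjusted p = 0.019).

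The promoters of 4 of these sarcomere and peptide genes are shown because Acta1, Myl7 and Nppb were called above sham while Actc1, cardiac α-actin, was not. Actc1 was at 1985, 2236 and 1997 FPKM in sham and 2859, 2493 and 2498 in TAC+PUE (difference 0.34, adjusted p = 0.10). Every TAC+PUE heart lay above every sham heart for Actc1, and it was called with rRNA-like transcripts removed (0.52). The promoters were chosen after the values of their genes were seen. Each runs from 120 bases before to 30 bases after the RefSeq start, in build GRCm38.p6 and read 5′ to 3′ on the strand of the gene. Capitals mark a CArG box, the binding motif of serum response factor, or an M-CAT element, CATTCCT or its complement AGGAATG, the motif of TEAD factors, each searched on both strands.
Acta1, minus strand, chr8:123894746-123894895: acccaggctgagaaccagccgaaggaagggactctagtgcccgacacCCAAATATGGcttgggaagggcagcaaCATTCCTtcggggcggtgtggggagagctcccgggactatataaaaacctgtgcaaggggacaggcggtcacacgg
Myl7, minus strand, chr11:5898753-5898902: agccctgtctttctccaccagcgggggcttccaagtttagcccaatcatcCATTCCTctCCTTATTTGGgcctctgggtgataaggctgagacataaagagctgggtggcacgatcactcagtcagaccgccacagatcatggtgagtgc
Nppb, plus strand, chr4:147985780-147985929: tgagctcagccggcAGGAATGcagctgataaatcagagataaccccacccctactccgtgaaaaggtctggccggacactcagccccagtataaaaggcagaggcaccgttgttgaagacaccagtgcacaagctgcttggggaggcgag
Actc1, minus strand, chr2:114052846-114052995: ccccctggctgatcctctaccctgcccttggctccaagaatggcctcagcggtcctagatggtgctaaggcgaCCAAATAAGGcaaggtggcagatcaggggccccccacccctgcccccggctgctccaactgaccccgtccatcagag
Acta1 and Myl7 each hold both motifs, Nppb only M-CAT and Actc1 only a CArG box. In the whole windows of 300 bases, 250 before and 50 after each start, a CArG box occurs in 1.63% and an M-CAT element in 5.36% of 32851 RefSeq promoters. Of 13 hypertrophy and stress genes with a promoter, 2 hold a CArG box and 4 an M-CAT element, and of 20 adult contractile and calcium handling genes also 2 and 4.

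Atrial markers as a sum were above sham in every TAC+PUE heart and by very different amounts. The summed level of all 14 listed was 226 to 241 FPKM in sham and 808, 4106 and 1495 FPKM in TAC+PUE, with TAC+PUE replicate 2 the highest. Most of the sum in each TAC+PUE heart was Nppa, which is also a stress gene. Not every marker rose, and Bmp10 was at 0 in at least 1 TAC+PUE heart and in no sham heart. Of 13 atrial markers tested, 7 were higher, 1 was lower and 5 were not called, beside 14.6% of all genes higher and 2.7% lower. Without any single sham heart the counts were 3 higher and none lower, and without TAC+PUE replicate 3 they were 4 and 1. The median difference was 0.95, and 0.32 without TAC+PUE replicates 2 and 3. Myl7 differed from sham by 6.42 (SE 1.0, adjusted p = 0.0092), with TAC hearts at 79.8, 1.60 and 198 FPKM. Nppa, atrial natriuretic peptide, which is on this list and among the stress genes, was at 71.2, 74.9 and 70.4 FPKM in sham and at 577, 2756 and 927 in TAC+PUE, a difference of 3.96 (SE 0.50, adjusted p = 0.0049). Dkk3, a secreted Dickkopf protein, differed by 3.61 (SE 0.50, adjusted p = 0.0065). The atrial genes Myl4 and Sln and, outside this list, Mybphl differed by 4.89, 4.25 and 3.96, and lost their calls without any single sham heart (Myl4 at 4.85 to 4.94, Sln at 4.24 to 4.27, Mybphl at 3.93 to 3.98) and without TAC+PUE replicate 3 (4.79, 3.97 and 3.87). Sln was also lost without TAC+PUE replicate 2 (3.22), and Sln and Mybphl at a pseudocount of 5 (2.49 and 2.25). The part of atrial tissue in the level of Nppa was not tested. Kcna5, a potassium channel gene, was lower, at 9.75, 13.2 and 4.80 against 19.2 to 19.7 FPKM (difference -1.09, adjusted p = 0.042), a call lost without any single sham heart at -1.09 to -1.08.

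Adult contractile and calcium handling genes gave no call. None of 22 tested was called in either direction by limma, beside 17.3% of all genes, and 3 were higher and 5 lower at an unadjusted p under 0.05. Near sham were 10, beside 54.5% of all genes, while in TAC 8 were higher and 8 lower. The median difference was -0.01 and turned to 0.17 once the rRNA-like transcripts were removed, with 3 genes called higher, and to -0.17 and -0.19 under the other scalings, with 3 and 4 called lower. Tnni3, cardiac troponin I, was at 648, 771 and 677 FPKM in sham, 1976, 1186 and 1410 in TAC and 608, 782 and 736 in TAC+PUE. The TAC+PUE hearts spread across the sham range, with a difference of 0.02 (95% confidence interval -0.30 to 0.33). Tnnt2, cardiac troponin T, was at 404, 449 and 466 FPKM in TAC+PUE and 400, 436 and 402 in sham (difference 0.09, interval -0.15 to 0.33), against 567 to 812 FPKM in TAC, and its sign turned under median-ratio scaling (-0.077). Pln, phospholamban, the brake on the calcium pump of the sarcoplasmic reticulum, was at 226, 203 and 225 FPKM in sham, 33.0, 58.9 and 65.0 in TAC and 201, 121 and 173 in TAC+PUE. It was not resolved, since all TAC+PUE hearts lay below all sham hearts and the interval, -0.85 to -0.01, was wide (adjusted p = 0.13).

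Scn4b, the β4 subunit of the cardiac sodium channel, was lower than in sham and lower than in TAC. It stood at 12.1, 13.8 and 11.9 FPKM in sham, 6.05, 7.52 and 7.37 in TAC and 4.61, 5.66 and 4.73 in TAC+PUE. Every TAC+PUE heart was below every heart of the other groups. The difference from sham was -1.18 (SE 0.10, adjusted p = 0.0014) and that from TAC -0.41 (adjusted p = 0.048). Klhl38, a kelch-like gene of striated muscle, was at 19.5, 21.3 and 18.6 FPKM in sham and 9.63, 8.84 and 9.29 in TAC+PUE (difference -1.02, adjusted p = 0.0014). Parm1 was at 49.3, 47.1 and 49.1 FPKM against 26.6, 23.0 and 23.9 (difference -0.96, adjusted p = 0.0015). In TAC these last genes differed from sham by -1.43 and -1.35.

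Mitochondrially encoded mRNAs, whose products are core proteins of complexes I, III, IV and V, were partly below sham. Of 13 tested, 8 were lower and none higher (12 and 0 at an unadjusted p under 0.05), beside 2.7% of all genes lower and 14.6% higher. The median difference was -1.12. TAC had all 13 lower, beside 38.2% of all genes, and a median of -4.01. mt-Nd1, a complex I subunit, was at 14487, 10274 and 14971 FPKM in sham, 635, 1220 and 1909 in TAC and 7436, 3822 and 7140 in TAC+PUE. No TAC+PUE heart reached the lowest sham heart, and the difference was -1.15 (SE 0.30, adjusted p = 0.039). mt-Cytb, cytochrome b, differed by -1.20 (adjusted p = 0.044) and mt-Co2 by -1.01 (adjusted p = 0.044). mt-Atp6 had the largest difference, -2.54 (SE 0.72, adjusted p = 0.049), but sham replicate 2, at 1570 FPKM, stood far from the other sham hearts, at 9615 and 10326. mt-Atp6 overlaps mt-Atp8, so reads of the pair are uncertain, and its call was lost in 9 of 17 alternatives, at -2.76 to -2.07. The 5 others, mt-Co1, mt-Co3, mt-Nd4, mt-Nd5 and mt-Nd6, had differences of -1.16 to -0.51 without a call. The 8 calls fell to 4 without TAC+PUE replicate 2, to 4 without sham replicate 2, and to none without TAC+PUE replicate 3, sham replicate 1 or sham replicate 3, with mt-Nd1 then at -1.29, -1.08 and -1.05. Without TAC+PUE replicate 1 there were 11. Calls of mt-Nd1, mt-Cytb and mt-Co2 were also lost without TAC+PUE replicate 2 (-0.84, -0.85 and -0.75) and in the joint fit, and that of mt-Cytb without sham replicate 2 (-1.37). Without TAC+PUE replicates 2 and 3 the median was -0.71, again with no call.

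Nuclear genes of oxidative phosphorylation were mostly near sham. Of 45 tested, 30 were near sham, beside 54.5% of all genes, and 1 was lower, beside 2.7% of all genes. It was Sdha, a subunit of succinate dehydrogenase, at 180, 161 and 184 FPKM against 220, 226 and 221 (difference -0.35, adjusted p = 0.040). The Sdha call was lost in 8 of 17 alternatives, at -0.38 to -0.16, among them those without any single sham heart. At an unadjusted p under 0.05, 1 was higher and 11 were lower. The median difference was 0.03 and turned to -0.14 with 12 genes lower under median-ratio scaling, and to -0.15 with 13 lower once rRNA-like and mitochondrial mRNAs were removed, so the list has no direction that holds over the scalings.

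Fatty acid uptake and oxidation genes were lower in part. Of 30 tested, 10 were lower and none higher (16 and 0 at an unadjusted p under 0.05), where 2.7% of all genes were lower. Near sham were 15, beside 54.5% of all genes, and the median difference was -0.26 beside -0.44 in TAC. The median was -0.07 with 3 lower without rRNA-like transcripts, and -0.42 and -0.43 with 17 lower each under median-ratio scaling and without rRNA-like and mitochondrial mRNAs. In the joint fit 3 were lower. In all 4 scalings 3 were called. The count was 2, 3 and 2 without sham replicates 1, 2 and 3, 3 without TAC+PUE replicate 2, 4 without replicate 3 or without both, and 11 without replicate 1. Pdk4, the kinase that shuts pyruvate dehydrogenase when fat is burned, was at 203, 199 and 200 FPKM in sham, 14.7, 20.4 and 20.6 in TAC and 131, 115 and 87.8 in TAC+PUE. The TAC+PUE hearts lay between the groups, at -0.87 from sham (SE 0.14, adjusted p = 0.011) and 2.51 from TAC (adjusted p = 0.00027). The call against sham was lost without sham replicate 1 (-0.86) and without sham replicate 3 (-0.87). Ucp3, a mitochondrial uncoupling protein of muscle that fatty acids induce, had the same order, at 29.1, 32.1 and 30.1, then 3.86, 4.12 and 7.99, then 18.3, 13.7 and 16.3 FPKM. Its difference from sham was -0.89 (SE 0.11, adjusted p = 0.0052).

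Acsl1, which activates long-chain fatty acids for oxidation, showed no such return, at 69.2, 72.1 and 69.7 FPKM in sham, 45.2, 48.6 and 51.8 in TAC and 46.3, 47.8 and 50.1 in TAC+PUE. It differed from sham by -0.54 in TAC+PUE (SE 0.077, adjusted p = 0.0069) and from TAC by -0.01 (adjusted p = 0.95). Cd36, the fatty acid translocase, was at 244, 166 and 192 FPKM against 291, 281 and 293 (difference -0.54, adjusted p = 0.043), a call lost without any single sham heart (-0.56 to -0.53), without TAC+PUE replicates 2 (-0.41) or 3 (-0.52), or both (-0.24), in the joint fit (-0.54) and after removal of rRNA-like transcripts (-0.35). Of the metabolic transcription factors, Ppargc1a, the coactivator that drives mitochondrial biogenesis, was at 18.8, 13.3 and 17.4 FPKM against 24.2, 20.9 and 23.4 (difference -0.46, adjusted p = 0.055), and was called under median-ratio scaling (-0.62).

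Of 21 genes of glucose uptake and glycolysis tested, 3 were higher and none lower (5 and 1 at an unadjusted p under 0.05), a share near the 14.6% of all genes, and 14 were near sham beside 54.5% of all genes. The median of 0.09 turned to -0.07 under median-ratio scaling, with 2 higher and 2 lower, and 1 was higher without sham replicates 1 or 3. Pgam1, phosphoglycerate mutase, was at 17.3, 17.4 and 16.6 FPKM in sham and 25.6, 29.8 and 30.2 in TAC+PUE (difference 0.70, SE 0.089, adjusted p = 0.0051). Pfkp, the platelet-type phosphofructokinase, differed by 0.59 (adjusted p = 0.016), a call lost without sham replicates 1 (0.58) or 3 (0.56) and once rRNA-like and mitochondrial mRNAs were removed (0.43). Gapdh was near sham, at 133, 122 and 122 FPKM against 116, 130 and 120, with a sign that depended on the scaling (0.04 as deposited, -0.13 under median-ratio scaling).

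**Figure D4:**
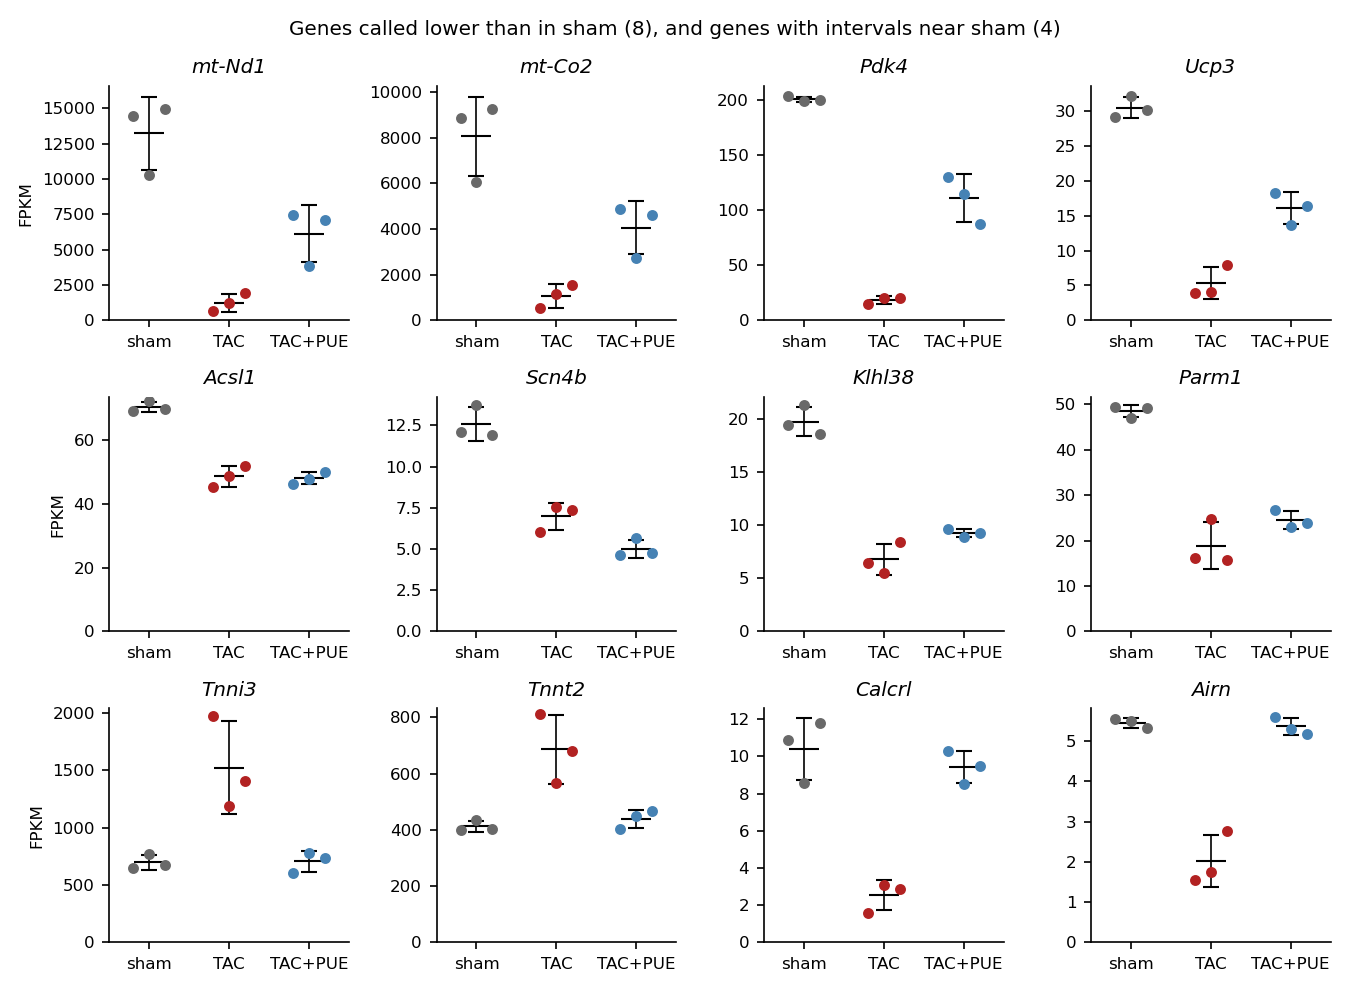
FPKM of 8 genes called lower in TAC+PUE than in sham and of Tnni3, Tnnt2, Calcrl and Airn, whose intervals lie near sham, for 3 hearts a group with points for single hearts and bars for mean and SD. Pdk4 and Ucp3 lie between TAC and sham, Acsl1 lies at 46.3 to 50.1 FPKM within the range of TAC, and Airn lies at 5.19 to 5.61 FPKM beside 5.32 to 5.55 in sham.

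Antigen presentation and macrophage genes stood above sham. Of 22 macrophage and leukocyte markers tested, 15 were higher and 1 lower (17 and 1 at an unadjusted p under 0.05), beside 14.6% and 2.7% of all genes. The lower gene was the scavenger receptor Cd163, at -0.32 and with its call lost in 8 of 17 alternatives (-0.42 to -0.16). The median difference was 0.66, and 12 were higher under all 4 scalings. The summed level of the markers was 414 to 494 FPKM in sham and 763 to 993 in TAC+PUE. Without TAC+PUE replicates 2 and 3, 10 were called higher, and without sham replicates 1 and 3, 7 and 6. The class II genes led: H2-Eb1, a β chain, was at 27.8, 34.6 and 25.7 FPKM in sham, 93.6, 82.1 and 103 in TAC and 76.0, 115 and 108 in TAC+PUE (difference 1.72, SE 0.18, adjusted p = 0.0026). H2-Ab1 and H2-Aa, the chains of I-A, differed by 1.49 and 1.48 (adjusted p = 0.0014 and 0.0011), and their TAC+PUE hearts, at 60.2 to 79.0 and 56.1 to 70.5 FPKM, lay above 22.3 to 26.8 and 20.8 to 24.1 in sham. H2-Aa was also higher than in TAC, by 0.72 (adjusted p = 0.0058). Cd74, the invariant chain that class II molecules assemble with, was at 154, 208 and 210 FPKM against 41.9, 72.9 and 41.6 (difference 1.89, adjusted p = 0.0048), and was not called with TAC+PUE replicate 1 as the lone TAC+PUE heart (1.59).

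Resident macrophage and complement genes moved less. Adgre1, which codes for the F4/80 antigen, was at 6.21, 6.61 and 6.03 FPKM in sham and 9.39, 9.49 and 9.16 in TAC+PUE (difference 0.51, adjusted p = 0.0080, lost without sham replicates 1 at 0.50 and 3 at 0.48). C1qb, of the first complement component, was at 68.1, 88.0 and 78.2 FPKM against 45.1, 49.0 and 44.3 in sham and 127, 112 and 125 in TAC, above sham by 0.74 (adjusted p = 0.0078) with -0.63 against TAC (adjusted p = 0.011). Csf1r, Cd68 and Mrc1, which mark macrophages broadly, had differences of 0.28, 0.34 and -0.03 and did not pass. Csf1r and Cd68 were called with rRNA-like transcripts removed (0.45 and 0.50) and without TAC+PUE replicate 1 (0.39 and 0.42). Nkg7, a granule gene of cytotoxic lymphocytes, went from 0.522, 0.0722 and 0.191 to 2.26, 2.65 and 3.75 FPKM (difference 1.62, adjusted p = 0.0030).

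Of the 39 genes that were below sham in TAC and above sham in TAC+PUE, the most abundant was B2m, the light chain of class I molecules, described here after its values were seen. It was at 234, 217 and 233 FPKM in sham, 81.5, 129 and 205 in TAC and 495, 350 and 448 in TAC+PUE, with no overlap among the groups, at 0.90 from sham (adjusted p = 0.0087). Xirp2, a Xin repeat protein of the intercalated disc, was at 392, 206 and 201 FPKM against 137, 125 and 136 in sham and 40.4, 78.2 and 52.4 in TAC (difference from sham 0.93, adjusted p = 0.042), and lost its call under median-ratio scaling (0.76), without rRNA-like and mitochondrial mRNAs (0.75), without any single sham heart (0.89 to 0.95) and without TAC+PUE replicate 3 (1.09). The count of 39 itself was 3 without any single sham heart, 6 under median-ratio scaling, 16 once rRNA-like and mitochondrial mRNAs were removed or in the joint fit, 20 without TAC+PUE replicate 3 and 73 without TAC+PUE replicates 2 and 3.

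Markers of other cell types differed by list. Endothelial markers had 3 higher and 1 lower of 16 tested (none without sham replicates 1 or 3 or TAC+PUE replicate 3), beside 14.6% and 2.7% of all genes, a median of 0.02 and a summed level of 530 to 576 FPKM in sham and 507 to 633 in TAC+PUE. Vwf, von Willebrand factor, was at 14.6, 29.4 and 23.6 FPKM against 8.78, 10.7 and 8.50 (difference 1.14, adjusted p = 0.020), and its call was lost without sham replicates 1 (1.11) or 3 (1.08) and without TAC+PUE replicate 3 (1.08) or replicates 2 and 3 (0.60). Smooth muscle and mural markers had 5 higher and 2 lower of 13, 1 and 1 without sham replicate 1, 2 and 1 without sham replicate 3, 3 and 1 without TAC+PUE replicate 2 or 3, and 3 and 2 under median-ratio scaling or without rRNA-like and mitochondrial mRNAs. Tagln, transgelin of smooth muscle, was at 15.7, 15.3 and 11.9 FPKM against 6.38, 6.14 and 5.47 (difference 1.12, adjusted p = 0.0028), and Abcc9, the sulfonylurea receptor of cardiac, smooth muscle and pericyte potassium channels, at 36.8, 31.0 and 40.6 against 60.2, 58.5 and 58.3 (difference -0.70, adjusted p = 0.0087). Red blood cell markers had a median of 1.41, above that of the matrix list, with 1.76 in TAC, and 5 of 8 were higher at an unadjusted p under 0.05. After adjustment 1 of 8 was higher, with 5 after removal of rRNA-like transcripts or in the joint fit, 7 without TAC+PUE replicate 1, and none without any other single library or under the other scalings. This 1 was Hba-a1, an α-globin gene whose reads are hard to split from its near-identical copy Hba-a2, at 404, 934 and 1353 FPKM against 250, 326 and 268 (difference 1.51, adjusted p = 0.041). The Hba-a1 call was lost without any single sham heart (1.43 to 1.62), without TAC+PUE replicates 2 (1.40) or 3 (1.13) or both (0.53), under median-ratio scaling (1.35) and without rRNA-like and mitochondrial mRNAs (1.33). Of the fat markers tested 1 was higher and 1 lower of 5, with Adipoq, Plin1, Retn and Ucp1 listed at 0 in at least 1 sham heart. Of 4 skeletal muscle markers 2 were higher, Acta1 and Mybpc2, both also on the stress list. No lung, thymus or nerve marker reached the level for testing, and those in the tables summed to 1.78 to 2.03 FPKM in sham and 2.53 to 3.60 in TAC+PUE.

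Ribosomal protein genes had a median above that of all genes in each scaling, while the number called moved with the scaling. As deposited, 27 of 67 were higher and none lower (54 and 0 at an unadjusted p under 0.05), beside 14.6% and 2.7% of all genes. The median was 0.41, beside 0.11 over all genes. Once the rRNA-like transcripts were removed 59 were higher (median 0.60, all genes 0.25). Higher were 4 under median-ratio scaling (median 0.25, all genes -0.02). Once mitochondrial mRNAs were removed as well, 7 were higher (median 0.23, all genes -0.04). Without sham replicates 1, 2 and 3 the calls were 2, 7 and 0, without TAC+PUE replicate 2, 11, without replicate 3 or both, 1, and without replicate 1, 56. Rpl3, of the large subunit, was at 48.9, 68.7 and 57.0 FPKM against 30.9, 34.3 and 30.2 (difference 0.84, adjusted p = 0.0088, lost without sham replicate 3 at 0.81). Eef1a1, the elongation factor that brings aminoacyl-tRNA to the ribosome, was at 254, 368 and 318 FPKM against 180, 189 and 180 (difference 0.75, adjusted p = 0.016, lost without sham replicates 1 or 3 at 0.74). Many ribosomal protein genes and Eef1a1 have processed pseudogenes, so their FPKM are uncertain. The rRNA-like Gm26917 itself was at 1.30 above sham (adjusted p = 0.032), a call lost without sham replicates 1 (1.21) or 3 (1.18), without TAC+PUE replicate 3 (1.33) and without replicates 2 and 3 (0.75).

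In the insulin-like growth factor axis 4 of 20 genes tested were higher and none lower (7 and 2 at an unadjusted p under 0.05), beside 14.6% of all genes higher. The count was 1 without sham replicates 1 or 3, 2 without TAC+PUE replicate 2, 3 higher and 3 lower under median-ratio scaling and 8 higher without rRNA-like transcripts. Igfbp5, a binding protein of the growth factors, was at 25.2, 25.2 and 25.0 FPKM in sham and 68.0, 89.1 and 55.4 in TAC+PUE, with TAC at 31.2, 25.2 and 57.2, a difference from sham of 1.43 (SE 0.16, adjusted p = 0.0033). Igf2, the fetal growth factor, was at 5.33, 9.24 and 13.5 FPKM against 2.52, 3.98 and 1.59 (difference 1.46, adjusted p = 0.028), a call lost without sham replicates 1 (1.45) or 3 (1.23), without TAC+PUE replicates 2 (1.43) or 3 (1.18), or both (0.83). H19, the imprinted lncRNA beside Igf2, was at 11.5, 22.5 and 10.1 FPKM against 3.60, 2.98 and 3.31 (difference 1.79, SE 0.26, adjusted p = 0.0073). Akt1 and the transcription factor Srf, both named by the study, were not called, with differences of 0.37 and 0.42 (adjusted p = 0.11 and 0.058), and were called with rRNA-like transcripts removed (0.55 and 0.59).

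Cell cycle, histone and stress protein genes were higher in part. Of 14 replication-dependent histone genes 11 were higher (12 at an unadjusted p under 0.05) and none lower in either way. Over all genes 14.6% were higher and 2.7% lower. The histone median was 0.67, and 7 calls held under all 4 scalings. The count was 4 and 3 without sham replicates 1 and 3, 7 without TAC+PUE replicate 3 and 5 without TAC+PUE replicates 2 and 3. Hist2h3c2, a histone H3 gene, was at 12.6, 15.7 and 8.35 FPKM against 3.39, 4.68 and 2.83 (difference 1.49, adjusted p = 0.0085); near-identical histone copies make single genes uncertain. Of 10 proliferation genes 4 were higher and none lower, beside 14.6% and 2.7% of all genes, and 3 were higher without any single sham heart. The median was 0.49, and 0.65 without TAC+PUE replicates 2 and 3. The 4 were all of the Mcm helicase that licenses replication, with Mcm6 at 4.50, 4.44 and 3.89 against 2.48, 2.49 and 2.50 FPKM (difference 0.59, adjusted p = 0.0067). Of 28 heat shock and unfolded protein response genes 6 were higher, beside 14.6% of all genes, and 2 without sham replicates 1 or 3. Hspb6, a small heat shock protein of muscle, was at 157, 152 and 120 FPKM against 75.6, 83.8 and 74.5 (difference 0.86, adjusted p = 0.0072), and Ddit3, the stress factor CHOP, at 11.5, 12.9 and 15.0 against 6.30, 7.56 and 6.46 (difference 0.86, adjusted p = 0.0061).

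Immediate early and clock genes differed between TAC+PUE hearts. Egr1 was at 22.6, 15.7 and 3.75 FPKM in TAC+PUE against 3.88 to 4.40 in sham, so that replicate 3 lay below sham and the others above, and no call was made (adjusted p = 0.12). Without replicate 3 the difference was 1.96 and was called. Ciart, a repressor of the clock, was at 0.731, 1.10 and 4.18 FPKM against 3.88 to 4.56, again with replicate 3 apart, and Nr1d2 at 18.3, 16.2 and 28.9 against 29.1 to 32.6. Of 18 clock genes 1 was higher and none lower with all hearts (1 and 2 at an unadjusted p under 0.05), beside 14.6% and 2.7% of all genes. Without TAC+PUE replicate 3, 3 clock genes were higher and 5 lower. Of 21 immediate early genes 3 were higher, a share near the 14.6% of all genes, and none without any single sham heart, with 8 higher and 1 lower at an unadjusted p under 0.05. Among the 3 was Junb, at 17.3, 24.6 and 12.3 FPKM against 7.39 to 8.21 (difference 1.07, adjusted p = 0.020, lost without any single sham heart at 1.04 to 1.11). Of 24 antioxidant genes 16 were near sham, beside 54.5% of all genes, and 1 was lower, beside 2.7% of all genes. Lower were 7 under median-ratio scaling, 6 without rRNA-like and mitochondrial mRNAs, and none without any single sham heart.

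Genes that TAC moved most and that lay near sham in TAC+PUE are a description, since both values chose them. Among those higher in TAC, Alkbh7, a mitochondrial AlkB homologue, was at 19.4, 20.7 and 18.4 FPKM in sham, 51.5, 39.4 and 41.6 in TAC and 19.7, 23.2 and 20.1 in TAC+PUE, with an interval of -0.12 to 0.32 around 0.10. Tnni3 is given above, and Zc3h11a, Rom1, Pdcd7, Trir and Vars2 had TAC differences of 0.94 to 1.16 and TAC+PUE differences of -0.10 to 0.28. Among those lower in TAC, Calcrl, the receptor for calcitonin gene-related peptide and adrenomedullin, was at 10.9, 8.57 and 11.8 FPKM in sham, 1.60, 3.11 and 2.88 in TAC and 10.3, 8.54 and 9.47 in TAC+PUE (interval -0.42 to 0.17). The RNA helicase gene Ddx6, the translation initiation gene Eif3e, Serpinb6b, Enpp4, Tmem123, Sh3bgrl and Polr2k had TAC differences of -1.84 to -1.52 and TAC+PUE differences of -0.26 to -0.01. The member just inside the limit among these was Rom1, with an upper bound of 0.50, and Pln, above, lay outside it.

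Airn, the imprinted lncRNA that overlaps Igf2r on the opposite strand and that the study followed, was at 5.55, 5.50 and 5.32 FPKM in sham, 1.55, 1.75 and 2.77 in TAC and 5.61, 5.30 and 5.19 in TAC+PUE. The TAC+PUE hearts overlapped the sham hearts and were apart from TAC. The difference from sham was -0.02 (SE 0.077), with an interval of -0.20 to 0.16, and it took the other sign once the rRNA-like transcripts were removed (0.13). The sources used here do not say how counting used strand, so Airn and Igf2r reads cannot be told apart with certainty, as for Mhrt and Myh7. Igf2r was near sham too, at 34.7, 36.0 and 33.5 FPKM against 36.2, 39.4 and 36.5. Of 13 cardiac and stress lncRNAs tested 3 were higher, H19, Meg3 and Snhg12, and none was lower (3 and 2 at an unadjusted p under 0.05). Over all genes 14.6% were higher. Near sham were 7, a share near the 54.5% of all genes, and TAC had 9 lower, beside 38.2% of all genes. Under median-ratio scaling 1 was higher and 1 lower, without rRNA-like transcripts 6 were higher, and without any single sham heart 1. Meg3 and Snhg12, at 0.47 and 0.53, lost their calls without any single sham heart (0.40 to 0.53 and 0.47 to 0.57), without TAC+PUE replicate 3 (0.43 and 0.42) and without replicates 2 and 3 (0.48 and 0.34), and Snhg12 also without TAC+PUE replicate 2 (0.54) and under median-ratio scaling or without rRNA-like and mitochondrial mRNAs (both 0.40).

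As deposited, 6 genes were called lower than both sham and TAC, beside 323 called higher than both. In this scaling both comparisons lean upward, with median differences over all genes of 0.11 from sham and 0.27 from TAC. The 2 counts under other scalings are not reported here. Besides Scn4b, the lower ones that the naming rule gave were Thrsp, a lipogenic gene, C1qtnf9, a secreted C1q relative, and the glutathione transferase Gstm7. Thrsp was at 5.42, 7.56 and 6.02 FPKM against 9.39, 10.9 and 8.80 in sham and 10.7, 9.63 and 14.6 in TAC (difference from sham -0.55, adjusted p = 0.031), and C1qtnf9 at 22.2, 23.1 and 23.0 against 31.4, 35.0 and 31.6 in sham (difference -0.50, adjusted p = 0.0095). The Gstm7 call, at -0.32, was lost in 7 of 17 alternatives (-0.35 to -0.15). Thrsp and C1qtnf9 lost theirs without sham replicates 1 and 3 and with rRNA-like transcripts removed (Thrsp at -0.57, -0.61 and -0.38, C1qtnf9 at -0.53, -0.52 and -0.32), and that of Thrsp also without sham replicate 2 (-0.47) and TAC+PUE replicate 3 (-0.52). On the higher side, 5 genes had no sham value in the joined tables and at least 1 FPKM in all TAC+PUE hearts, among them Sprr1a, a stress-induced cornified envelope gene, at 4.15, 2.99 and 2.62 FPKM, and Col12a1, a fibril-associated collagen, at 2.86, 2.35 and 2.35. Their TAC hearts were at 0.176 to 0.692 and 0.310 to 0.406 FPKM. No test against sham was made for them.

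**Figure D5:**
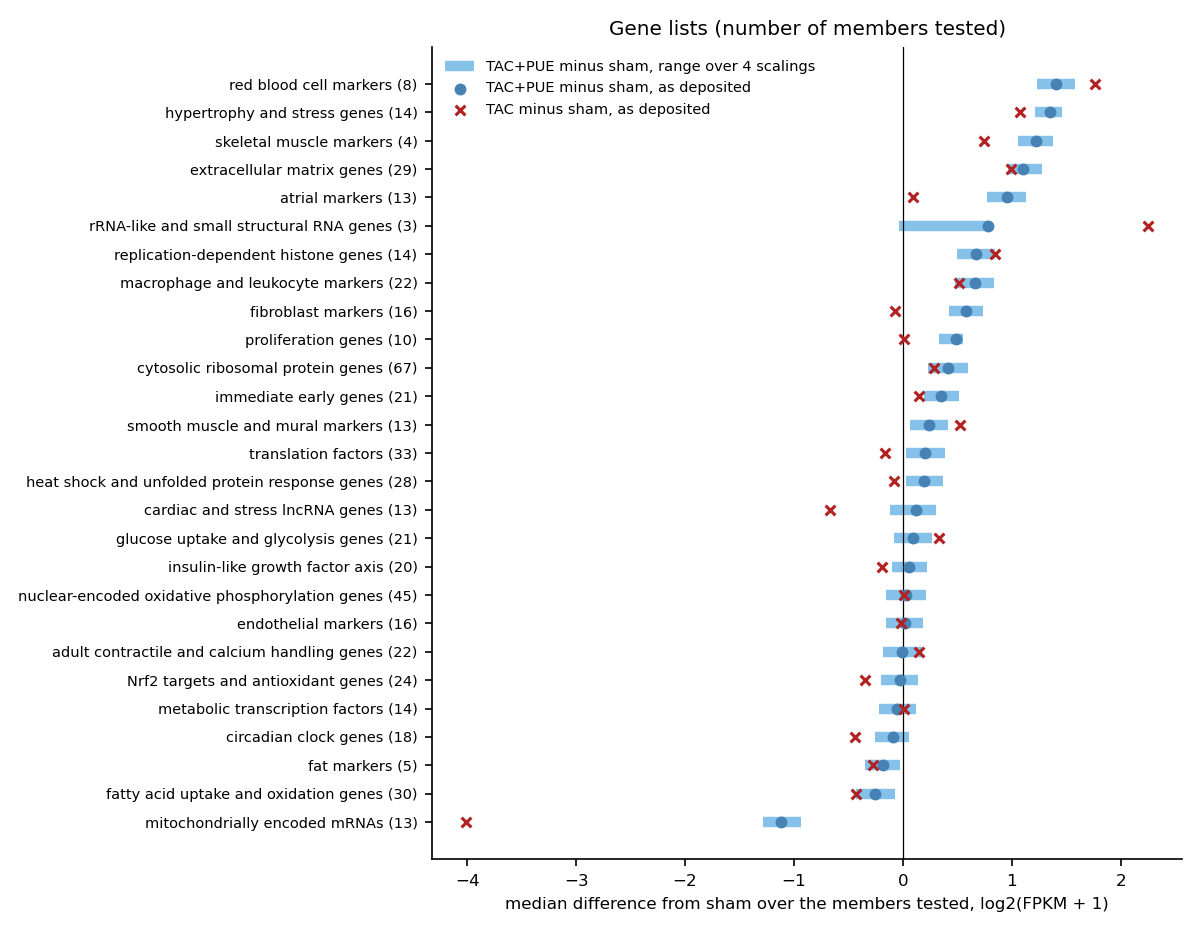
Median difference from sham over the tested members of each gene list, on log2(FPKM + 1), for TAC+PUE (blue points, with pale bars for the range over 4 scalings) and TAC (red crosses), with the number of members in brackets. Matrix and hypertrophy genes lie at 1.10 and 1.35 in TAC+PUE and at 0.99 and 1.07 in TAC. Mitochondrially encoded mRNAs lie at -1.12 in TAC+PUE against -4.01 in TAC, and adult contractile and oxidative phosphorylation lists cross 0 between scalings.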

How the data were processed

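Per the paper's methods, the authors aligned reads of stranded libraries with Hisat2 and took expression from StringTie and Ballgown; the submitters' processing notes name the build mm9. The deposited gene tables hold FPKM, 1 for TAC+PUE and TAC (14073 genes) and 1 for TAC and sham (13853 genes). They were joined on the gene identifier, and the TAC values were the same in both for all 13646 shared genes. Genes whose larger group mean is below 0.500 FPKM are left out of a table. The joined 6 libraries list 159 values at 0. Columns of the authors' own fold changes and p-values and the lncRNA transcript lists were not used. Whole reads were not recovered (80 low genes, at most 1 sharing a ratio between libraries), so depth is unknown and no count test was run.

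limma 3.58.1 (R 4.3.3, eBayes with trend, two-sided) was fitted on log2(FPKM + 1), 3 libraries against 3, over all genes with 1 FPKM or more in any 3 of the 6, with Benjamini-Hochberg adjustment and calls at 0.05. A difference on this scale understates the change of low genes. The function was tested on simulated data. Tables and figures used Python 3.11.15, numpy 2.4.6, pandas 2.3.3 and matplotlib 3.10.9. Of the genes, 12272 matched the RefSeq table of GRCm38.p6, which gave the promoters. The 17 alternatives changed the pseudocount to 0.1 or 5, dropped the filter or set it to 10 FPKM, dropped the trend, scaled in 3 other ways, fitted all 9 libraries jointly, took the replicate number as a block, and left out each library, or TAC+PUE replicates 2 and 3 together.

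Genes named were the 12 largest called differences in each direction with a mean of at least 5 FPKM and no predicted or clone name, up to 4 members of each of 28 lists, the 8 largest TAC changes in each direction that were near sham in TAC+PUE, the largest called beyond both sham and TAC, and genes the study names. Other genes were chosen after their values were seen. The members, lists and rules were chosen with earlier results of these data known. Igf2bp2, which the study names, was in the tables below the filter and was not tested. Not every gene that these rules give is reported here.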

Additional observations from a re-analysis of the deposited data

How the results depend on the processing

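Counts below are in the order higher, lower, near sham, higher in both constricted groups, higher in TAC+PUE but lower in TAC, and lower in both, which were 1738, 322, 6505, 1144, 39 and 303. A filter at 10 FPKM, which tests fewer genes, gave 488, 154, 1750, 325, 14 and 146. Median-ratio scaling gave 835 higher, 881 lower, 703, 6 and 745. Removing rRNA-like transcripts gave 3624, 140, 2973 and 124 lower in both, and removing mitochondrial mRNAs too gave 888, 714, 642, 16 and 650. The joint fit gave 184 lower, 16 and 176. The pseudocount of 5, which shrinks low genes, gave 9911 near sham. Without TAC+PUE replicates 2 and 3 the counts were 895, 201, 503, 73 and 158. Leaving out single libraries gave 361 to 2682 higher, 40 to 1019 lower, 5126 to 7419 near sham, 234 to 1737, 3 to 47, and 36 to 978. The other counts stayed within 1.5 times. Apart from what the constructions show, the cause was not tested. The numbers of the replicates do not pair the hearts by the labels, and deviations of same-numbered hearts correlated at 0.19, 0.31 and 0.036, with sham replicate 3 closest to TAC+PUE replicate 1. The replicate block gave 2552 higher, 529 lower, 1782 higher in both, 62 and 503.

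Signs turned only for genes that were not called. Under median-ratio scaling Myh6 was at -0.11, Myl2 at -0.12, Lars2 at -0.021, Ckm at -0.12, Ttc4 at -0.084, Gapdh at -0.13 and Tnnt2 at -0.077, and with rRNA-like and mitochondrial mRNAs removed at -0.13, -0.13, -0.032, -0.13, -0.099, -0.14 and -0.093. With rRNA-like transcripts removed Atp2a2 was at 0.017, Igf2r at 0.080, Airn at 0.13, Mhrt at 0.17, Fap at 0.0060, Ddr2 at 0.073 and Mrc1 at 0.14. Without TAC+PUE replicates 2 and 3 Myh6 was at -0.0078, Myl2 at -0.16, Gpx3 at -0.48, Nav3 at 0.031, Airn at 0.034, Tnnt2 at -0.030, Ddr2 at 0.0040 and Mrc1 at 0.11. Leaving out single libraries gave -0.057 to 0.16 for Myl2, -0.010 to 0.14 for Ckm, with -0.0047 without sham replicate 3, -0.0065 to 0.082 for Gapdh, -0.079 to 0.026 for Mhrt and -0.0998 to 0.059 for Mrc1. With 3 hearts a group and unknown depth, 3423 genes were not resolved.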
